A study of Mus musculus with 12 samples.

Results

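The proteasome genes of mouse gastrocnemius, a calf muscle, are described here in mice lacking the transcriptional coactivators PGC-1alpha, PGC-1beta or both. Members were all genes of the array whose symbol begins with Psma, Psmb, Psmc, Psmd, Psme, Psmf or Psmg and a digit. The rule found 50 symbols on 83 probes among 19437 genes, and 48 of them, on 78 probes, name a component of the proteasome or a factor that builds or inhibits it. These 48 genes comprised 19 subunits of the core particle, 17 of the regulatory cap, 4 activators and 8 assembly factors or inhibitors. The remaining symbols, Psmc3ip and Psme3ip1, belong to interacting proteins and were kept apart. All 50 had enough values to be tested, so none was lost to a filter on low values.

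The proteasome is the barrel-shaped protease that degrades ubiquitin-tagged proteins. Its core is built from rings of alpha-type and beta-type subunits, with the catalytic sites on beta-type subunits inside the barrel. The cap binds, unfolds and feeds in the substrate, with a ring of ATPases (Psmc genes) and a set of non-ATPase subunits (most Psmd genes). Activators (Psme genes) can dock onto the core in place of the cap. In skeletal muscle this pathway breaks down contractile proteins and is known for its part in muscle wasting. The coactivators are known for control of mitochondrial and oxidative genes, and Ppargc1a encodes PGC-1alpha while Ppargc1b encodes PGC-1beta.

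Total RNA came from male mice of 12 weeks on a C57BL6/J x sv129 background, and each of 12 Agilent arrays compared a pair of RNAs labelled with Cy5 and Cy3. By their titles, 3 arrays each set PGC-1alpha -/-, PGC-1beta f/f/Mlc1fCre, and PGC-1alpha-/- beta f/f/Mlc1fCre muscle against PGC-1beta f/f muscle, and 3 set the double knockout directly against PGC-1alpha -/-. The floxed controls, the beta knockout and the double knockout all carry the floxed PGC-1beta gene. Mlc1f-Cre is expressed in skeletal muscle fibres, so cells of other types in the muscle keep the floxed gene. The groups are called the alpha-labelled, beta-labelled, double-labelled and direct arrays. The knockout carried Cy5 on every array, with the double knockout as Cy5 on the direct arrays, and the dyes were never exchanged, so each mean below holds any dye effect of its gene. Because the alpha-labelled, double-labelled and direct arrays close a loop, a dye term common to all arrays could be fitted as an alternative, and its values are given for the members whose called means moved furthest. Every value below is a log2 ratio of Cy5 over Cy3, with the median gene of each array set to 0. A value of 1 thus means a ratio doubled relative to that of the median gene, and -1 a ratio halved relative to it. Rises, falls and folds are meant in this sense. Before centring, the median gene lay furthest from 0 on the third direct array, at -1.58. The sources do not say whether arrays of a group came from separate mice, so the p-values measure only the spread between arrays.

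The targeted genes were checked first. Ppargc1a was at -1.17, -2.41 and -1.13 on the alpha-labelled arrays, and fell (mean -1.57, limma adjusted p = 0.0264). It was at -0.53, -1.95 and -1.43 on the double-labelled arrays, a mean of -1.30 that missed the threshold of 0.05 (limma adjusted p = 0.137). On the direct arrays, where both RNAs are labelled as lacking PGC-1alpha, Ppargc1a was at 0.91, 0.48 and 0.51. On the beta-labelled arrays in the fit Ppargc1a was at 0.26 and -0.35. On beta 3, which was left out of the fit, Ppargc1a was at -1.55. The title of beta 3 names the beta knockout, and the label of its Cy5 channel the double knockout. The median of the probes measured on all arrays was -2.12 on beta 3. Which knockout beta 3 holds was not tested. Ppargc1b was at 0.95 and 1.03 on the beta-labelled arrays in the fit. It was at 0.69, 0.30 and -0.09 on the double-labelled arrays. These values run against the deletion that those labels name. On the third beta-labelled array, which was left out of the fit, Ppargc1b was at -0.9977. On the direct arrays it was at -0.223, -1.501 and -2.099, lower in the double than in the alpha knockout. Ppargc1b rose on the alpha-labelled arrays, with a mean of 1.35 (limma adjusted p = 0.0391). Where the Ppargc1b probes lie relative to the deleted part is not given in the sources used here, so this checks neither label. On 6 of 12 arrays the title and the label of the Cy5 channel disagreed on the knockout; the groups follow the titles.

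The third beta-labelled array stands apart. Over genes, its correlation with the first beta-labelled array was -0.44, and the authors' deposited beta means equal the means of the remaining pair for 100% of probes. It was left out of the fit, which leaves 11 arrays. On that array the median of the proteasome genes was -2.61, against 0.93 and 0.37 on the first and the second. With it kept, the median over the beta-labelled group is -0.27 in place of 0.72.

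A trend with signal strength also ran through the arrays. The median of the 9318 probes measured on all 12 arrays was 0.66, 0.18 and 0.35 on the alpha-labelled arrays, 0.54 and 0.15 on the first and second beta-labelled arrays, and 0.46, 0.02 and -0.38 on the double-labelled arrays. On the direct arrays it was -0.02, 0.05 and -0.59. The 209 probes that were dim on 9 or more of the 12 arrays had medians from -1.68 to -0.70 on the alpha-labelled arrays and from 0.93 to 2.97 on the direct arrays. The part of this trend in the proteasome values was not tested, and single probes are given for several members whose probes differ.

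As a group, the proteasome genes lay above the median gene on the alpha-labelled and beta-labelled arrays, less so on the double-labelled arrays, and near it on the direct arrays. On the alpha-labelled arrays their median was 0.97, 0.52 and 0.56. On the first and second beta-labelled arrays it was 0.93 and 0.37. On the double-labelled arrays it was 0.95, 0.32 and -0.36, so the third of these lay on the other side of 0 from the first and second. On the direct arrays it was 0.05, 0.21 and -0.72.

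**Figure D1:**
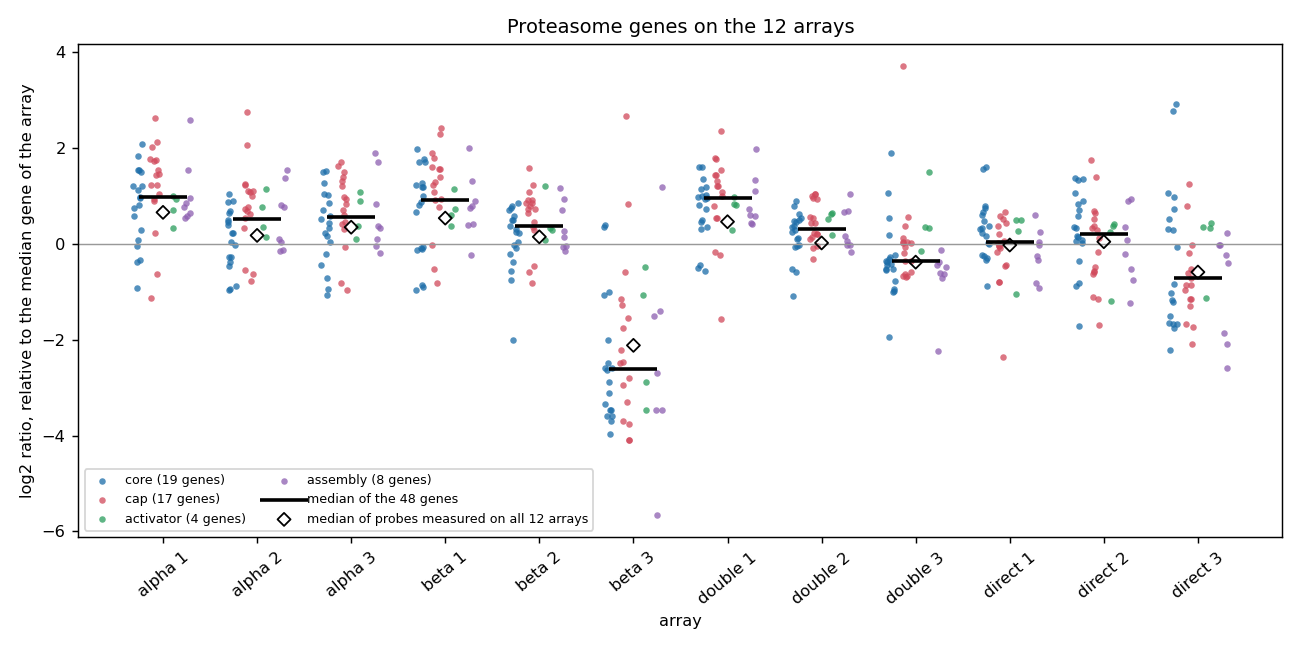
Log2 ratio, relative to the median gene of the array, of each of the 48 proteasome genes (dots, by class) on the 12 arrays; bars are the medians of the 48 genes and diamonds the median of the 9318 probes measured on all arrays. The bar moves with the diamond, from 0.97 against 0.66 on the first alpha-labelled array to -2.61 against -2.12 on the third beta-labelled array, which is not in the fit.

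Over the group means, 40 of the 48 proteasome genes lay above 0 on the alpha-labelled arrays, where 51.7% of all 16526 genes tested did, and their median was 0.76 against 0.04 for all genes. On the beta-labelled arrays 39 of 48 lay above 0, where 52% of all genes did, with medians of 0.72 and 0.03. On the double-labelled arrays 41 of 48 lay above 0, where 48.9% of all genes did, with medians of 0.28 and -0.02. Of the 48, 22 lay above 0 on the direct arrays, where 46.4% of all genes did, with medians of -0.15 and -0.07. The first 3 of these comparisons share the floxed control genotype, and the direct arrays share the alpha knockout with the alpha-labelled ones. It is the numerator on the alpha-labelled and the denominator on the direct arrays. Over all genes, alpha-labelled and direct arrays correlated at -0.575 to -0.279. Opposite signs of a member on these arrays are thus not read as particular to it. Whether the same RNA was used again is not stated, so the shifts of these comparisons are not taken as independent. These medians are descriptions with no test. In whole muscle, a change in the number of cells of a type and a change in RNA per cell cannot be told apart.

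Past an adjusted p of 0.05 over all genes (limma, Benjamini-Hochberg), 7 of 48 proteasome genes rose and 1 fell on the alpha-labelled arrays. That is 14.6% and 2.08% of the members, where 7.81% of all genes tested were called, 5.59% higher and 2.21% lower. On the beta-labelled arrays none of the 48 passed, nor did any gene (0% called); at an unadjusted p under 0.05, 15 members were higher and 2 lower, where 8.28% of all genes were higher and 5.76% lower. On the double-labelled arrays none of the 48 passed by limma, where 0.436% of all genes were called; at an unadjusted p under 0.05, 8 members were higher and 0 lower, where 5.54% of all genes were higher and 7.27% lower. The direct arrays had 4 of 48 members higher and 4 lower, where 6.38% of all genes were called, 2.23% higher and 4.15% lower; at an unadjusted p under 0.05, 8 were higher and 7 lower there, where 10.2% and 15.5% of all genes were. The difference of the double-labelled minus the beta-labelled arrays had a median of -0.42 over the members, with 13 of 48 above 0, against -0.12 and 43.2% over all genes. No member passed this difference by limma, where 0.00605% of all genes were called; at an unadjusted p under 0.05, 1 member was higher and 0 lower, where 3.59% of all genes were higher and 4.13% lower.

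These calls rested on few arrays and on the scaling. With the dye term, with no centring, or with arrays grouped by their channel labels, none of the 48 was called on the alpha-labelled or the direct arrays. Centred on the genes measured throughout, 5 members were higher and 4 lower on the alpha-labelled arrays, where 632 of all genes were higher and 658 lower, against 924 and 366 as centred here. On the direct arrays that centring gave 6 members higher and 3 lower, where 569 of all genes were higher and 551 lower, against 369 and 686. With no centring, 13 of all genes were higher and 75 lower on the alpha-labelled arrays, and 60 higher and 676 lower on the direct arrays. With any 1 of the 3 alpha-labelled arrays left out, or with the third beta-labelled array kept in the fit, none of the 48 was called on the alpha-labelled arrays; 3 were called without beta 1, beta 2, double 2 or direct 2, 5 without direct 1, 14 without direct 3, 16 without double 1 and 17 without double 3. None was called on the direct arrays without direct 2 or direct 3 or with the third beta-labelled array kept. There, 1 was called without direct 1 or alpha 3, and 3 without alpha 1, alpha 2, beta 1 or beta 2. Calls over all genes moved too. On the alpha-labelled arrays they went from 1290 to 7, 0 and 1 without alpha 1, 2 and 3. They were 677 without beta 1, 709 without beta 2, 914 without double 2 and 992 without direct 2. They were 1111 without direct 1, 1620 without direct 3, 1761 without double 1 and 1795 without double 3. On the direct arrays they went from 1055 to 865, 66 and 0 without direct 1, 2 and 3.

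**Figure D2:**
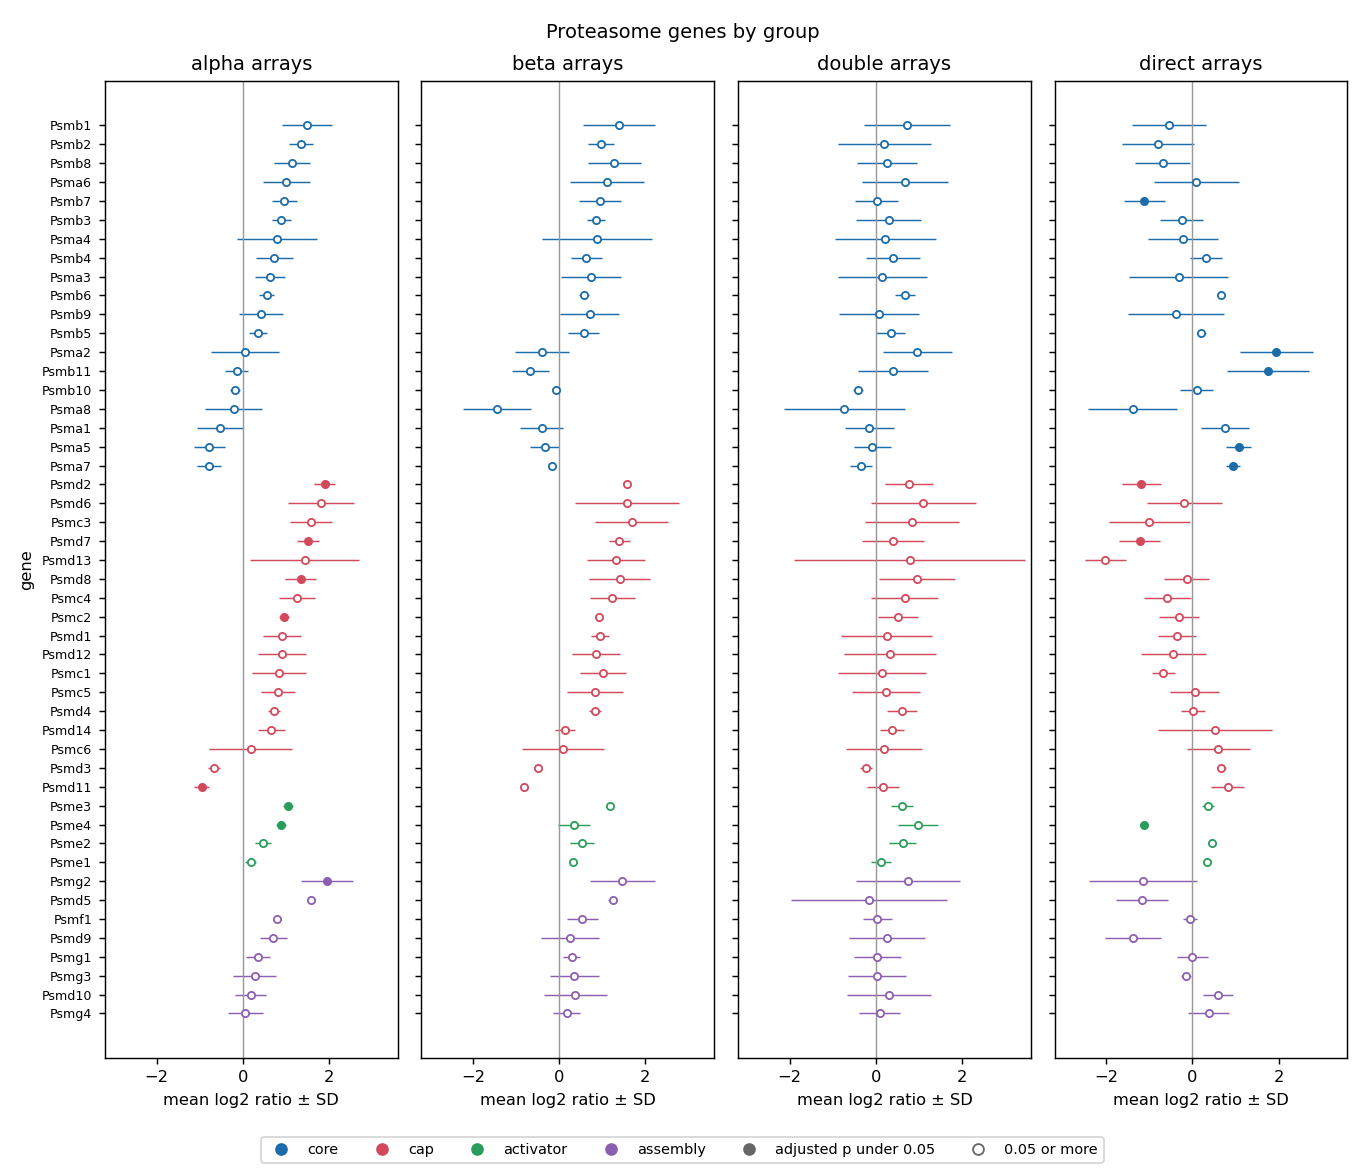
Mean log2 ratio with its SD (3 arrays a group, 2 for the beta-labelled group and for Psmd13 on the direct arrays) of the 48 proteasome genes, by class and ordered within a class by the alpha-labelled mean; filled points have a limma adjusted p under 0.05. Filled points appear on the alpha-labelled arrays (8 genes) and the direct arrays (8 genes) and on neither of the others.

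The cap was the class with the highest medians on the alpha-labelled and beta-labelled arrays. Over its 17 genes the median was 0.92 on the alpha-labelled, 0.95 on the beta-labelled, 0.41 on the double-labelled and -0.31 on the direct arrays. On the alpha-labelled arrays 4 cap genes rose and 1 fell, where 5.59% of all genes were called higher and 2.21% lower. On the direct arrays 2 cap genes fell, where 4.15% of all genes were called lower. The 6 ATPases had a median of 0.90 on the alpha-labelled arrays, with 1 called, and the 11 non-ATPase subunits one of 0.92, with 3 higher and 1 lower. No test of one class against another was made.

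Psmd2, a large scaffold subunit of the cap's base that receives ubiquitin shuttle factors, had the smallest p of the members on the alpha-labelled arrays. It was at 2.02, 2.08 and 1.63 there, at 1.57 and 1.59 on the beta-labelled arrays in the fit, at 1.21, 0.94 and 0.13 on the double-labelled arrays, and at -0.79, -1.11 and -1.67 on the direct arrays. All arrays against floxed RNA in the fit lay above 0 and all direct arrays below it. The alpha-labelled mean was 1.91 ± 0.24 (SD, n = 3), a 3.76-fold rise (limma adjusted p = 0.00856). The direct mean was -1.19 ± 0.45 (SD, n = 3; limma adjusted p = 0.0341), lower in the double than in the alpha knockout. Its mean of 0.76 on the double-labelled arrays missed the threshold (limma adjusted p = 0.286), as did its mean of 1.58 on the beta-labelled arrays (0.181). The 2 Psmd2 probes had alpha-labelled means of 1.80 and 2.02 and direct means of -1.23 and -1.15.

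Psmd7, the lid subunit that pairs with the deubiquitinase Psmd14, had a similar course. It was at 1.78, 1.26 and 1.51 on the alpha-labelled arrays, at 1.56 and 1.23 on the beta-labelled arrays, at 1.20, 0.20 and -0.19 on the double-labelled arrays, and at -0.80, -1.14 and -1.73 on the direct arrays. It rose on the alpha-labelled arrays (mean 1.52 ± 0.26, SD, n = 3; limma adjusted p = 0.0213) and fell on the direct arrays (mean -1.23 ± 0.47, SD, n = 3; limma adjusted p = 0.0419). Its 3 probes had alpha-labelled means of 1.10, 1.44 and 2.00 and direct means of -0.81, -1.32 and -1.55, all of one sign within a group. Psmd8, another lid subunit, was at 1.75, 1.09 and 1.21 on the alpha-labelled arrays, where it rose (mean 1.35; limma adjusted p = 0.0481), and at 0.03, 0.29 and -0.72 on the direct arrays, on both sides of 0. Its double-labelled values were 1.78, 1.03 and 0.03, with an adjusted p of 0.307 by limma.

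Psmd11, a lid subunit known in worms and cultured cells for raising proteasome assembly when it is abundant, was the only member called lower on the alpha-labelled arrays as centred on all genes. It was at -1.12, -0.77 and -0.95 there, at -0.83 and -0.82 on the beta-labelled arrays, at -0.17, 0.10 and 0.56 on the double-labelled arrays, and at 0.52, 0.69 and 1.24 on the direct arrays. Its alpha-labelled mean was -0.95 ± 0.18 (SD, n = 3; limma adjusted p = 0.0421), but its probes disagreed. One probe was at 1.92, 1.30 and 1.86 on the alpha-labelled arrays and at -0.72, -1.14 and -1.21 on the direct arrays, as Psmd2 and Psmd7 were. Another was at -3.45, -2.84 and -3.78 on the alpha-labelled arrays and at 1.75, 3.12 and 4.10 on the direct arrays, and was dim or undefined on 2 of 11 arrays. The third, dim or undefined on 9 of 11 arrays, averaged -1.39 over the 2 alpha-labelled arrays that measured it. With dim or equal signals left out the alpha-labelled mean of Psmd11 was -0.10 (limma adjusted p = 0.906). The authors' deposited tables hold the first of these probes as up (a ratio of 2.95 for the alpha knockout) and the second as down (0.09). Centred on the genes measured throughout, Psmd3, Psma5 and Psma7 were called lower on the alpha-labelled arrays besides Psmd11. Psmd3, a lid subunit, was at -0.63, -0.55 and -0.82 there as centred on all genes, and its mean with the other centring was -0.94 (limma adjusted p = 0.0310).

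Psmc2, an ATPase of the cap, was called at the edge of the threshold and is named after its value was seen. It was at 1.04, 0.99 and 0.83 on the alpha-labelled arrays and at 0.21, -0.64 and -0.52 on the direct arrays, with an alpha-labelled mean of 0.95 (limma adjusted p = 0.0498). Its 2 probes had alpha-labelled means of 0.50 and 1.40. Psmc3, also an ATPase, had the highest beta-labelled mean of all members, 1.69 from values of 2.29 and 1.08, and missed the threshold (limma adjusted p = 0.259). Psmc3 was at 2.13, 1.23 and 1.40 on the alpha-labelled arrays, all above 0, with an adjusted p of 0.0606 by limma.

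Psmd6, a lid subunit, had the highest mean on the double-labelled arrays. It was at 2.36, 1.01 and -0.07 there (mean 1.10; limma adjusted p = 0.405), so 2 of 3 arrays carried the mean. On the alpha-labelled arrays Psmd6 was at 2.62, 1.12 and 1.71 (mean 1.82; limma adjusted p = 0.0576), and on the beta-labelled arrays at 2.43 and 0.72. Psmd13, a lid subunit read by a single probe, was the lowest member on the direct arrays, at -2.35 and -1.69 with the third value undefined (limma adjusted p = 0.245). Psmd13 ran on the double-labelled arrays from -1.58 to 3.71, too wide a spread for a direction.

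The median of the core particle was lower in the alpha-type than in the beta-type ring on the alpha-labelled arrays, but genes of both rings overlapped. The 11 beta-type subunits had medians of 0.73 on the alpha-labelled, 0.71 on the beta-labelled, 0.29 on the double-labelled and -0.25 on the direct arrays. The 8 alpha-type subunits had medians of -0.08, -0.25, 0.04 and 0.42 on the same groups. No core gene passed on the alpha-labelled arrays, where 8 of the 19 were higher and 2 lower at an unadjusted p under 0.05, against 16.9% and 9.22% of all genes. By limma, 4 core genes were higher and 1 was lower on the direct arrays, and 3 of the 4 were alpha-type. Over all genes, 2.23% were called higher and 4.15% lower there. Psma6 and Psma4, with alpha-labelled means of 1.02 and 0.80, lay above the beta-type median, and the beta-type Psmb10 and Psmb11 lay below 0. The difference between the rings was not tested.

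The catalytic subunits lay above 0 on the alpha-labelled arrays without passing. Psmb5, which carries the chymotrypsin-like site, was at 0.59, 0.24 and 0.23 on the alpha-labelled arrays and at 0.74, 0.11 and 0.18 on the double-labelled arrays. Psmb6, which carries the caspase-like site, was at 0.74, 0.49 and 0.43 on the alpha-labelled, 0.66 and 0.49 on the beta-labelled, 0.94, 0.54 and 0.55 on the double-labelled and 0.67, 0.58 and 0.72 on the direct arrays. All 11 Psmb6 values in the fit were above 0, and its adjusted p by limma was lowest on the direct arrays, at 0.0875. Psmb7, which carries the trypsin-like site, was at 1.22, 0.65 and 1.02 on the alpha-labelled arrays and at -0.87, -0.82 and -1.67 on the direct arrays, with no overlap. It fell on the direct arrays (mean -1.12 ± 0.48, SD, n = 3; limma adjusted p = 0.0464), and its mean of 0.96 on the alpha-labelled arrays missed the threshold (0.0666).

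The immunoproteasome subunits, which interferon induces and which take the place of the catalytic subunits to shape peptides for antigen presentation, passed in no group and lay on both sides of 0. Psmb8, the counterpart of Psmb5, was at 1.50, 0.70 and 1.27 on the alpha-labelled arrays and at 1.71 and 0.85 on the beta-labelled arrays. Psmb8 was, on the double-labelled arrays, at 0.97, 0.25 and -0.43, and on the direct arrays at 0.01, -0.87 and -1.22. Its means of 1.15 on the alpha-labelled and 1.28 on the beta-labelled arrays missed the threshold (limma adjusted p = 0.0677 and 0.255). The 2 Psmb8 probes had alpha-labelled means of 1.38 and 0.92 and double-labelled means of 0.74 and -0.22. Psmb9, the counterpart of Psmb6, ran from -0.02 to 0.98 on the alpha-labelled and from -0.58 to 1.14 on the double-labelled arrays. Psmb10, the counterpart of Psmb7, was at -0.05, -0.28 and -0.22 on the alpha-labelled, -0.44, -0.52 and -0.28 on the double-labelled, and -0.24, 0.02 and 0.52 on the direct arrays; its double-labelled mean of -0.41 was among the 3 lowest of the members and missed the threshold (limma adjusted p = 0.482).

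A few alpha-type subunits lay below 0 on the alpha-labelled arrays. Psma7 was at -0.92, -0.47 and -0.95 there and at 0.75, 1.07 and 0.99 on the direct arrays, and Psma5 at -0.38, -0.87 and -1.07 on the alpha-labelled and 0.79, 1.37 and 1.06 on the direct arrays. The direct values lay above all the alpha-labelled ones for both genes. Psma7 was higher in the double than in the alpha knockout on the direct arrays (mean 0.93 ± 0.17, SD, n = 3; limma adjusted p = 0.0367), and so was Psma5 (mean 1.07 ± 0.29, SD, n = 3; limma adjusted p = 0.0385). With the dye term the direct mean was 0.43 for Psma7 (limma adjusted p = 0.582) and 0.69 for Psma5 (0.461), and with no centring 0.42 (0.588) and 0.56 (0.457). Their alpha-labelled means of -0.78 and -0.77 missed the threshold (limma adjusted p = 0.0583 and 0.0925), and centred on the genes measured throughout they were -1.06 (0.0326) and -1.05 (0.0232). Psma7 was, on the double-labelled arrays, at -0.57, -0.07 and -0.42 and Psma5 at 0.32, -0.04 and -0.52. Each is read by a single probe that was not dim on any array in the fit, and on the third beta-labelled array they were at -3.12 and -3.47.

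Psma2 had the highest mean on the direct arrays and on the difference between the double-labelled and beta-labelled arrays. It was at 1.60, 1.33 and 2.92 on the direct arrays (mean 1.95 ± 0.85, SD, n = 3; limma adjusted p = 0.0287) and at 0.51, 0.49 and 1.90 on the double-labelled arrays. One probe, measured on every array, was at 0.84, 1.57 and 0.80 on the direct arrays. The other was dim or undefined on 9 of 11 arrays and stood at 2.37, 1.08 and 5.03 on the direct arrays, so the probes differed in size. The direct mean of Psma2 was 0.92 with the dye term (limma adjusted p = 0.540). Psmb11, a beta-type subunit known from thymus, was likewise higher on the direct arrays (mean 1.75; limma adjusted p = 0.0303), with one probe, dim or undefined on 9 of 11 arrays, at 3.10, 2.08 and 4.88 and the other, dim or undefined on 4, at 0.04, -0.27 and 0.67. With the dye term the direct mean of Psmb11 was 0.53 (limma adjusted p = 0.700), and with dim signals left out too few values remained to test it. Psma8, the alpha-type subunit known from testis, was the lowest member on the beta-labelled arrays, at -0.90 and -2.00, and on the double-labelled arrays, at 0.81, -1.08 and -1.94; it passed on none (limma adjusted p = 0.355 and 0.613).

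**Figure D3:**
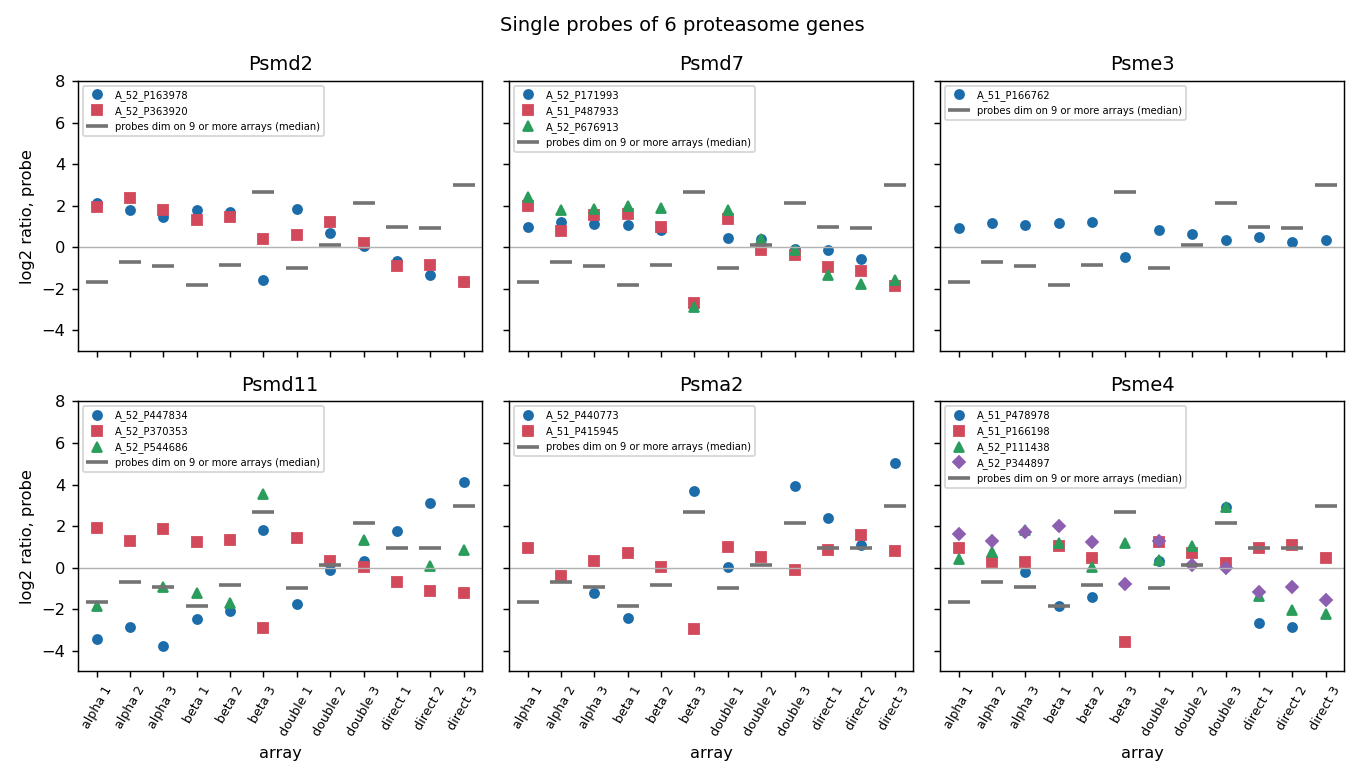
Log2 ratio of each single probe of Psmd2, Psmd7, Psme3, Psmd11, Psma2 and Psme4 on the 12 arrays, with grey bars for the median of the 209 dim probes. The probes of Psmd2 and of Psmd7 run together, while Psmd11 has 1 probe at 1.30 to 1.92 and another at -3.78 to -2.84 on the alpha-labelled arrays.

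The means of the 4 activators all lay above 0 on the alpha-labelled, beta-labelled and double-labelled arrays, with medians of 0.68, 0.43 and 0.61. Psme3, the nuclear activator that forms a ring of its own and works without ubiquitin or ATP, was at 0.93, 1.15 and 1.09 on the alpha-labelled arrays, 1.15 and 1.21 on the beta-labelled arrays, 0.84, 0.65 and 0.33 on the double-labelled arrays, and 0.51, 0.25 and 0.33 on the direct arrays. All 11 values were above 0, and those on the alpha-labelled and beta-labelled arrays stood within a narrow band. Psme3 rose on the alpha-labelled arrays, 2.08-fold (mean 1.06 ± 0.11, SD, n = 3; limma adjusted p = 0.0210). Its alpha-labelled mean was 0.24 with the dye term (limma adjusted p = 0.689). Its beta-labelled mean of 1.18 and double-labelled mean of 0.61 missed the threshold (limma adjusted p = 0.181 and 0.268). Psme3 is read by 1 probe, which was not dim on any array in the fit.

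Psme4, a large activator of a single chain, had the smallest p of the members on the double-labelled arrays and was called in opposite directions elsewhere. It was at 1.01, 0.76 and 0.90 on the alpha-labelled arrays, at 0.80, 0.63 and 1.51 on the double-labelled arrays, and at -1.05, -1.19 and -1.12 on the direct arrays. The double-labelled mean was 0.98 (limma adjusted p = 0.124) and the alpha-labelled mean 0.89, just under the threshold (limma adjusted p = 0.04999). Its mean on the direct arrays was -1.12 ± 0.07 (SD, n = 3; limma adjusted p = 0.0277), although the double-labelled and alpha-labelled means were close to each other. Its 4 probes did not agree on the direct arrays, with means of 0.83, -1.22, -1.87 and -2.76, and the last of these was dim or undefined on 9 of 11 arrays. In the same order, their alpha-labelled means were 0.49, 1.55, 0.99 and -0.20, the last from 1 array. With the dye term the direct mean was 0.09 (limma adjusted p = 0.927) and the alpha-labelled mean 2.10 (0.0561).

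Psme1 and Psme2, the interferon-inducible pair that forms a mixed ring, passed in no group. Psme1 lay between 0.10 and 0.33 on the alpha-labelled arrays and between -0.15 and 0.30 on the double-labelled arrays. Psme2 lay between 0.36 and 0.70 on the alpha-labelled and between 0.36 and 0.97 on the double-labelled arrays, above 0 on all 11 arrays in the fit. Its double-labelled mean of 0.62 missed the threshold (limma adjusted p = 0.285).

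The promoters of the 4 members with the smallest p on the double-labelled arrays are shown, although none of them passed there, because proteasome genes are known to share the antioxidant-type element that the factor Nfe2l1 reads. Those of Psme4, Psme3 and Psme2 run from 250 bases before to 50 after the annotated gene start, from RefSeq on GRCm38.p6. The Psmb6 window begins at 70525107 and the annotated gene at 70525324, so its marked match lies past that start. Capitals mark a match to TGACNNNGC (the antioxidant response element core), CCAAT or an interferon element (GAAA, any 2 bases, GAAA) on either strand. Psme4 (chr11:30771525-30771824, plus strand) holds TGACNNNGC on the minus strand from base 244 of the window, Psmb6 (chr11:70525107-70525406, plus strand) holds it on the plus strand from base 242, Psme3 (chr11:101315963-101316262, plus strand) holds CCAAT on the minus strand from base 237, and Psme2 (chr14:55591052-55591351, minus strand) holds none of them in the window shown, one of its 2 annotated starts.
Psme4: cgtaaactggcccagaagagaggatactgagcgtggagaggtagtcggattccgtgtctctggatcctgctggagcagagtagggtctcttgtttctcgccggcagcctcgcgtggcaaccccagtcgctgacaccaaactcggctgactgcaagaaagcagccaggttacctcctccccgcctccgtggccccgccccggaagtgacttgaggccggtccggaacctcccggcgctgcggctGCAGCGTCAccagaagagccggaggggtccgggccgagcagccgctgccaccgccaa
Psmb6: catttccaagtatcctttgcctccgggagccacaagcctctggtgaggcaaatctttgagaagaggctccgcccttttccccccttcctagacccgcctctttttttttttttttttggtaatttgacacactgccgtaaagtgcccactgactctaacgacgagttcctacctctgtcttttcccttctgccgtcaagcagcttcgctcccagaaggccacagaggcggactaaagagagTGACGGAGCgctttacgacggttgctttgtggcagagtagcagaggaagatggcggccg
Psme3: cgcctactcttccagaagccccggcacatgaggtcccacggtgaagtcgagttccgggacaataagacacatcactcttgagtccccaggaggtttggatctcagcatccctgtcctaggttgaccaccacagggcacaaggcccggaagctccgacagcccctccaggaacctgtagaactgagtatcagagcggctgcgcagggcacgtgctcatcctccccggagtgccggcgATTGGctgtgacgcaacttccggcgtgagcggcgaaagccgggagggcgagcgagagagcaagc
Psme2: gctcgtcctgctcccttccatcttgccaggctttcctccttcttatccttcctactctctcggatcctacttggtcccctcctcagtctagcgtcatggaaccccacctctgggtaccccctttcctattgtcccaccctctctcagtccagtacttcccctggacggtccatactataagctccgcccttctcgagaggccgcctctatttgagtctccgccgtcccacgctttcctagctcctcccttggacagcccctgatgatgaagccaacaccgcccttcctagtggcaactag

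Of the 48 proteasome genes, 40 had a promoter in the RefSeq table. TGACNNNGC was in 6 of these 40 (15%), against 14.0% of all 27025 genes with a promoter there. CCAAT was in 14 of 40 (35%), against 41.1%, and the interferon element in 5 of 40 (12.5%), against 3.99%. Of the genes called on the alpha-labelled arrays that had a promoter there, Psmd2, Psmd8 and Psmd11 held none of the 3 motifs, Psmc2 and Psme3 held CCAAT and Psme4 held TGACNNNGC. The core held CCAAT in 8 of 15 genes and the cap in 4 of 14. A match describes letters in the window and not a site that is bound.

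The 8 assembly factors and inhibitors had medians of 0.54 on the alpha-labelled, 0.36 on the beta-labelled, 0.06 on the double-labelled and -0.11 on the direct arrays. Psmg2, a chaperone that builds the alpha-type ring together with Psmg1, was at 2.60, 1.38 and 1.90 on the alpha-labelled arrays and at 2.00 and 0.94 on the beta-labelled arrays. Psmg2 was, on the double-labelled arrays, at 1.98, 0.69 and -0.43, and on the direct arrays at -0.33, -0.52 and -2.60. It had the highest alpha-labelled mean of all members (1.96 ± 0.61, SD, n = 3; limma adjusted p = 0.0489), a 3.89-fold rise. Its partner Psmg1 was at 0.64, 0.10 and 0.34 on the same arrays (mean 0.36; limma adjusted p = 0.433). No other assembly factor passed in any group, so 1 of 8 was called higher on the alpha-labelled arrays, where 5.59% of all genes were.

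Psmd5, a chaperone of the cap's base, was at 1.54, 1.54 and 1.70 on the alpha-labelled arrays and at 1.11, 0.67 and -2.24 on the double-labelled arrays. Because all groups share 1 estimate of spread, the wide double-labelled values enter its alpha-labelled test, and the mean of 1.59 missed the threshold (limma adjusted p = 0.0883). Without the third double-labelled array the same mean had an adjusted p of 0.00989 by limma. Psmd5 also had the lowest double-labelled minus beta-labelled difference of the members, -1.40 (limma adjusted p = 0.721). Psmd9, another chaperone of the base, was at -0.82, -1.24 and -2.08 on the direct arrays, all below 0 (mean -1.38; limma adjusted p = 0.0532). Psmf1, an inhibitor of the core, was at 0.78, 0.77 and 0.83 on the alpha-labelled arrays and at 0.41, -0.17 and -0.13 on the double-labelled arrays, with an alpha-labelled adjusted p of 0.0587 by limma. Its 3 probes differed, with alpha-labelled means of 1.70, 0.53 and 0.15. On the second alpha-labelled array they stood at 2.39, -0.04 and -0.05. The first and the last of these probes were dim or undefined on 5 and 3 of 11 arrays.

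The interacting proteins passed in no group. Psmc3ip, a factor of meiotic recombination, was at 0.74, -0.56 and -0.33 on the alpha-labelled arrays, and Psme3ip1, a protein that binds Psme3, was at 0.86, 0.73 and 0.31 there.

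Genes of the same pathway with other names were described from lists. Among 7 tested proteasome factors with other symbols, which include the core assembly factor Pomp and the cap's deubiquitinases Usp14 and Uchl5, none passed in any group, and their medians were 0.18, 0.13, 0.14 and -0.15 on the alpha-labelled, beta-labelled, double-labelled and direct arrays. Among 11 regulators and shuttle factors, 3 rose on the alpha-labelled arrays and none fell. Over all genes, 5.59% were called higher there and 2.21% lower. None of the 11 passed in the other groups. Their median was 0.82 on the alpha-labelled, 0.67 on the beta-labelled, 0.18 on the double-labelled and -0.33 on the direct arrays.

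The 3 that rose act around the proteasome. Nfe2l1, a factor known to drive transcription of proteasome genes when proteasome activity is short, was at 0.93, 0.96 and 1.42 on the alpha-labelled arrays (mean 1.10; limma adjusted p = 0.0328), at 0.23, 0.14 and -0.56 on the double-labelled arrays, and at -0.78, -0.61 and -1.35 on the direct arrays. Nploc4, a cofactor of the unfolding ATPase Vcp, was at 1.41, 1.18 and 1.04 on the alpha-labelled arrays (mean 1.21; limma adjusted p = 0.0319) and at -0.58, -0.81 and -0.92 on the direct arrays. Ube3c, a ubiquitin ligase that works on the proteasome, was at 1.23, 1.04 and 1.29 on the alpha-labelled arrays (mean 1.18; limma adjusted p = 0.0319) and at -0.38, -0.41 and -1.22 on the direct arrays. For all 3 the alpha-labelled values lay above 0 on every array and the direct values below it. The alpha knockout is the numerator of the former and the denominator of the latter, so these signs are not independent. Nfe2l2, the related factor of the antioxidant response, had an alpha-labelled mean of -0.36 (limma adjusted p = 0.591).

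Of the ubiquitin list 2 genes were tested, the conjugating enzymes Ube2d3 and Ube2n, and neither passed. Of 14 tested genes of antigen presentation and the interferon response, B2m, the light chain of class I molecules, rose on the alpha-labelled arrays (1.27, 1.11 and 1.60; mean 1.33; limma adjusted p = 0.0416) and was at 0.79, 0.42 and -0.54 on the double-labelled arrays. Over all genes, 5.59% were called higher on the alpha-labelled arrays, so 1 of 14 is not read as a result about the list. The list's medians were 0.40 on the alpha-labelled, 0.36 on the beta-labelled, -0.11 on the double-labelled and -0.35 on the direct arrays, and no other member of it passed in any group. The class I genes H2-K1 and H2-D1 had alpha-labelled means of 0.69 and 0.80 (limma adjusted p = 0.0885 and 0.0688).

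Marker genes of cell types were measured beside the proteasome genes. Of 12 muscle fibre markers, 5 rose on the alpha-labelled, 1 on the double-labelled and 7 on the direct arrays, and none fell. Over all genes, 5.59%, 0.109% and 2.23% were called higher in these groups. The median of the muscle fibre markers was 0.74, 0.57 and 1.13 on the alpha-labelled arrays and 1.43, 1.14 and 0.87 on the direct arrays. Of 12 macrophage and leukocyte markers none passed in any group, and their median stayed between -0.23 and 0.23 on every array. Of 4 red blood cell markers, Hba-a2 rose on the alpha-labelled arrays (mean 1.77; limma adjusted p = 0.0196), and the median of the list was 1.93, 0.60 and 1.01 there and 1.14, 0.03 and 0.25 on the double-labelled arrays. Of 5 tested endothelial markers 1 was lower on the direct arrays, where 4.15% of all genes were, and none passed elsewhere. Of 5 fibroblast and matrix, 3 adipocyte and 3 Schwann cell and nerve markers tested none passed in any group. The part of these markers in the proteasome values was not tested, and ratios carry no level by which the tissue itself could be checked.

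The authors' deposited tables of probes that reached a mean ratio of 2 or more, or of 0.7 or less, hold 28 probes of 23 proteasome genes in the up table and 8 probes of 8 genes in the down table. The 48 genes have 78 probes. Of all 40928 probes, 5990 are in the up table and 9610 in the down table. The sets overlap, since 3 genes (Psma3, Psmd11 and Psme4) are in both tables, and 1 Psme4 probe is itself in both. That probe has deposited ratios of 6473.23 for the alpha and 37788.74 for the double knockout, means that include values treated as undefined here. It was dim or undefined on 9 of 11 arrays. The probes held as up include both Psmd2 probes, with alpha-knockout ratios of 3.19 and 3.68 in the authors' deposited table and double-knockout ratios of 1.80 and 1.59. Those held as down include Psma7, with an alpha-knockout ratio of 0.53 in the authors' deposited table, and Psma5, with 0.54. Those tables carry no test and their ratios are not centred on the median gene.

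**Figure D4:**
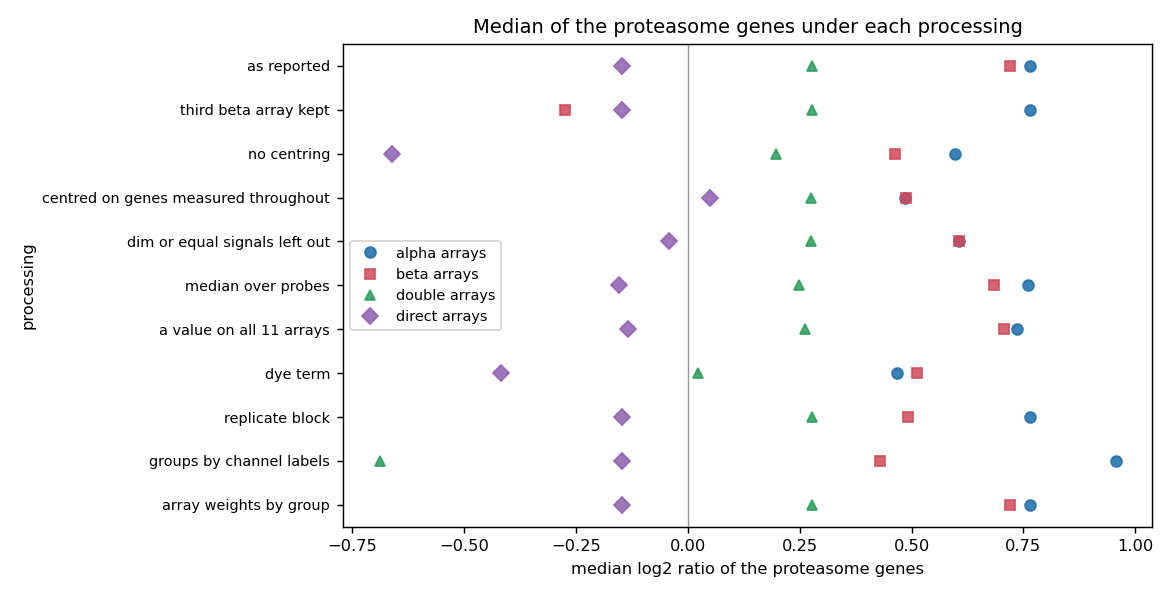
Median log2 ratio of the 48 proteasome genes in each group under each way of processing, with the values as reported in the top row. The alpha-labelled median stays between 0.47 and 0.96, while the beta-labelled median is -0.27 with the third beta-labelled array kept and the double-labelled median is -0.69 when arrays are grouped by their channel labels.

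The order of the medians over the groups depended on how arrays were grouped and scaled. With arrays grouped by their channel labels, the median of the members was 0.96 for the alpha knockout and -0.69 for the double knockout. Centred on the genes measured throughout, in place of all genes, the medians were 0.49 on the alpha-labelled, 0.49 on the beta-labelled, 0.27 on the double-labelled and 0.05 on the direct arrays. Without the first double-labelled array the double-labelled median was -0.02, and without the third it was 0.70.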

How the data were processed

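RNA of gastrocnemius was compared on 12 Agilent arrays with a pair of dyes. The deposited value table gives 1 linear ratio of Cy5 over Cy3 per probe and array, made by the authors, and ratios of 0 or below and the repeated maximum of an array were treated as undefined; which scanner, background correction and scaling they used is not stated in the sources at hand. The authors also deposited tables of mean ratios of probes called up or down, limited per the labels to fold values of 2 or more and of 0.7 or less. The design had assumed log ratios, so log2 was taken, averaged over the probes measured on an array for each gene, and centred on the array's median gene. Gene symbols came from the platform annotation, with 32443 of 40928 probes carrying 1 symbol, 44 several and 8441 none. Chromosome positions of promoters are those of the RefSeq table.

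limma 3.58.1 in R 4.3.3 fitted a mean per title group over 11 arrays (lmFit, eBayes), two-sided, with Benjamini-Hochberg adjustment over 16526 genes at 0.05; a gene needed values on 2 arrays of every group. The sources do not say whether controls on different arrays were separate RNAs, so the ratio against 0 may leave out the spread among controls. Arrays have no read depth, so their number limits the precision. On simulated data for the double-labelled comparison, run on 16526 genes, 28% of genes shifted by 1 on the log2 scale and 97% of those shifted by 2 were recovered, with 77 false calls. With 100 genes shifted by each size, that is more false calls than the threshold of 0.05 allows. The double-labelled arrays themselves gave 72 calls. With array weights by group, 10% and 92% were recovered in the simulation, with 5 false calls. Members and gene lists were chosen with earlier results of these data known. Genes were named when called (up to 6 a comparison by smallest p), when among the 3 highest or lowest members of a comparison, or as catalytic subunit, activator or targeted gene; lists of pathway genes and cell markers were described by counts. Alternatives were the third beta-labelled array kept, no centring, centring on genes measured throughout, dim signals left out, the median over probes, values required on all 11 arrays, a dye term, a replicate block, groups by channel labels, each array left out in turn, and array weights by group, added after seeing the data.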

Additional observations from a re-analysis of the deposited data

How the results depend on the processing

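The median of the proteasome genes on the alpha-labelled arrays was above 0 under every alternative run, lowest with the dye term (0.47) and with centring on genes measured throughout (0.49). The beta-labelled median was -0.27 with the third beta-labelled array kept, the double-labelled median -0.69 with groups by channel labels, and the direct median -0.66 with no centring. The double-labelled minus beta-labelled median was 0.67 with the third beta-labelled array kept and -1.21 with groups by channel labels. Of the 48, called on the alpha-labelled arrays were 0 with that array kept, with no centring, with the dye term and by channel labels, 17 with dim signals left out, 13 with values on all 11 arrays, 19 with the replicate block and 25 with array weights; on the direct arrays 0 with that array kept, no centring, the dye term and channel labels, and 4 with array weights. With the dye term the direct mean of Psme4 turned to 0.0895 (limma adjusted p = 0.927).

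Over all genes, calls on the alpha-labelled arrays (1290) were 17 with the third beta-labelled array kept, 88 with no centring, 14 with the dye term, 2049 with the replicate block, 2 by channel labels and 3656 with array weights. On the beta-labelled arrays (0) they were 1 with dim signals left out and 8 with array weights. On the double-labelled arrays (72) they were 0 with the third beta-labelled array kept, 17 with no centring, 211 with dim signals left out, 0 with the dye term, 1 by channel labels and 11 with array weights. On the direct arrays (1055) they were 4 with that array kept, 2 with the dye term, 1636 with the replicate block and 0 by channel labels. For double-labelled minus beta-labelled (1) they were 0 with that array kept, with no centring and with the replicate block, 3 with centring on genes measured throughout and 4 with values on all 11 arrays.

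With each array left out in turn, calls over all genes ran from 0 to 1795 on the alpha-labelled, 0 to 0 on the beta-labelled, 13 to 81 on the double-labelled, 0 to 1426 on the direct arrays and 0 to 1 for double-labelled minus beta-labelled. Calls among the 48 ran from 0 to 17 on the alpha-labelled and 0 to 10 on the direct arrays and were 0 throughout elsewhere. Their medians ran from 0.57 to 0.86, 0.37 to 0.93, -0.02 to 0.70, -0.17 to 0.16 and -0.65 to -0.07 in the same order of comparisons. Psmd2, Psmd7 and Psme3 on the alpha-labelled arrays and Psma2 on the direct arrays stayed called under 14 of 21 alternatives each, the other called members under 7 to 12. The labels do not say that a replicate number marks a shared batch. Same-numbered arrays against floxed RNA do carry the same channel label, so for them grouping by channel labels is grouping by replicate number. A batch and the knockout named by the channel cannot be told apart there. Same-numbered arrays deviated together between alpha-labelled and double-labelled (correlations of 0.43, 0.14 and 0.14) and alpha-labelled and beta-labelled (0.36 and 0.35). They did so less in the second pair of beta-labelled and double-labelled (0.37 and 0.07). Among the double-labelled arrays, alpha 2 correlated best with double 3 (0.27). The beta-labelled deviations are those of 2 arrays from their mean and mirror each other. Thus alpha 1 gave 0.36 with beta 1 and -0.36 with beta 2. With direct arrays, where alpha RNA is the denominator, alpha-labelled ones gave 0.07, -0.30 and 0.02 and double-labelled ones 0.26, 0.03 and 0.42. The replicate block was therefore run as an alternative only. The causes of these differences were not tested, and how far single signals stood above background is not known from ratios.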
